A study of Rattus norvegicus with 6 samples.

Results

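The genes described here are 39 genes of fibroblasts, collagens and matrix remodelling, chosen by name, and measured in rat renal cortex after 4 weeks of o-anisidine hydrochloride. Probes matched 33 of the 39 through the RefSeq accession on the array, and 31 gave a signal that could be tested, among 31087 genes tested in all. Col4a2, Col5a2, Col6a1, Col6a3, Col15a1 and Lox had no matched probe and were not analysed here. Periostin (Postn) and lumican (Lum) had 1 probe each, which was well above background on 0 of 6 and 1 of 6 arrays, so neither was tested. The other 31 genes were well above background on all 6 arrays.

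The study compared male Sprague-Dawley (Crl:CD(SD)) rats, bought at 5 weeks of age. Control animals received water and treated animals received o-anisidine hydrochloride at 700 mg/kg/day, an aromatic amine salt, each for 4 weeks. Total RNA of the renal cortex of 3 animals per group was hybridised to single-colour (Cy3) Agilent arrays, 1 array per animal. All values below are the log2 of the processed signal of the gene's brightest probe relative to the 75th percentile of its array, called the log2 signal, and a log2 change is the o-anisidine mean minus the control mean.

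The extracellular matrix of the renal cortex is laid down mostly by interstitial fibroblasts, pericytes and the cells of vessel walls and glomeruli. Fibrillar collagens form tensile fibres that lysyl oxidases cross-link, collagen IV forms the network of basement membranes, and metalloproteinases and their tissue inhibitors set how fast the matrix is removed. In renal fibrosis TGF-beta, released from its latent form, acts through SMAD proteins on fibroblasts, which then make more collagen and smooth muscle actin, and connective tissue growth factor (Ccn2) is one of its best known target genes.

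RefSeq promoter windows of the GRCr8 assembly, 300 bases from 250 before to 50 after the gene's start, were held for 25 of the 39 genes. The windows of Ccn2 and Tgfb2 are shown because these genes had the largest positive and the largest negative log2 change, and those of Col4a1 and Col4a2 because they overlap. Capitals mark matches on either strand to the TATA box (TATAAA), the CCAAT box, the AP-1 site (TGANTCA) and the SP1 site (GGGCGG). SMAD elements (CAGACA, and as a palindrome GTCTAGAC) and the SRF CArG box (CCWWWWWWGG, with W for A or T) are marked likewise. The Ccn2 window is chr1:22624565-22624864 (minus strand), that of Tgfb2 is chr13:100792636-100792935 (minus strand), that of Col4a1 is chr16:84885347-84885646 (plus strand) and that of Col4a2 is chr16:84885471-84885770 (minus strand).
Ccn2: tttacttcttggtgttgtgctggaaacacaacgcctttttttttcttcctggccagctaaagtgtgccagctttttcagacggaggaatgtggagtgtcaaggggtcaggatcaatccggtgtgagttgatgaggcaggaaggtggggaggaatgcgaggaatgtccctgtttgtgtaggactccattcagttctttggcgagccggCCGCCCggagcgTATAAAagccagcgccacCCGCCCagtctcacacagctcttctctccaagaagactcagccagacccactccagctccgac
Tgfb2: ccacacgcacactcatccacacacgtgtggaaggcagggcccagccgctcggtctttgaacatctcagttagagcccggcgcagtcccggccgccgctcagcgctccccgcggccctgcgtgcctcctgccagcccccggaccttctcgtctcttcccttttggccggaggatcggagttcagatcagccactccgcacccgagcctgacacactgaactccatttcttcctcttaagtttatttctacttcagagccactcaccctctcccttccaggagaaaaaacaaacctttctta
Col4a1: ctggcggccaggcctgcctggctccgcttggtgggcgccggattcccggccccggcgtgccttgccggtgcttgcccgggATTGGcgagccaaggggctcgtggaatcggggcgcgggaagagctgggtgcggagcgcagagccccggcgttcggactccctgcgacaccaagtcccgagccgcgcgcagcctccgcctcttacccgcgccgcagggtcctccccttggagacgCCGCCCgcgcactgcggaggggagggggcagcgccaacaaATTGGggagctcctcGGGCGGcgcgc
Col4a2: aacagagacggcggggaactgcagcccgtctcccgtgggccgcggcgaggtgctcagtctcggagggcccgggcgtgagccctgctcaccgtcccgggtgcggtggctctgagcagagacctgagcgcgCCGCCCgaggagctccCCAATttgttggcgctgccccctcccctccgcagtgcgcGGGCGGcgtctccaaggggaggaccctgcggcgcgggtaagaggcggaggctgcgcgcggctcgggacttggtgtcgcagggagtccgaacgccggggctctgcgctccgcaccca
Col4a1 and Col4a2, the chains of the main collagen of basement membranes, start 77 bases apart on opposite strands, and their windows share 176 bases. The Ccn2 window holds TATAAA and a pair of SP1 matches, while the Tgfb2 window holds none of the motifs searched. Over the 25 windows, the TATA box letters were found in 4 (Ccn1, Ccn2, Col1a2 and Postn, 16%, against 14.3% of all 27457 windows), the CCAAT box in 7 (28% against 37.7%) and the SP1 site in 10 (40% against 34.9%). The AP-1 site was found in 2 windows (8% against 7.33%) and the SMAD element CAGACA in 7 (28% against 20.8%). The SMAD palindrome and the exact CArG letters were found in 0 of 25, against 0.215% and 1.64% of all windows. Near matches to the CArG box, such as ccctatatgg and ccttgtttgg in the Acta2 window, were not counted. No window was held for Tagln or Myh11. The SP1 matches of Col4a1 and Col4a2, and a CCAAT match of each, lie in the bases their windows share and are counted in both. A match describes these letters only. The median GC content was 59.7% for the 25 windows and 52.3% for all windows.

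After o-anisidine the renal cortex showed no matrix gene past the threshold of an adjusted p of 0.05 in either direction (limma with Benjamini-Hochberg adjustment over all genes). The background was 0.0354% of genes called higher and 0.0257% called lower. Of the 31 genes, 24 had a log2 change below 0 and 7 above 0, with a median of -0.18 and a range from -1.35 for Tgfb2 to 0.85 for Ccn2. Over all genes tested 49.1% lay below 0 and the median was 0.00. At an unadjusted p under 0.05 there was 1 matrix gene higher, Ccn2 (3.23%, against 6.36% of all genes), and 4 lower, Loxl1, Mmp14, Bgn and Timp2 (12.9% against 5.14%). The smallest adjusted p of the set was that of Loxl1, at 0.272.

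The groups did not overlap for 6 of the 31 genes. Col18a1 and Acta2 lay higher on every treated array (6.45%, with a background of 9.55%), and Bgn, Mgp, Loxl1 and Mmp14 lay lower (12.9%, with a background of 8.88%). For 29 of the 31 genes the 95% confidence interval of the log2 change, not adjusted for the number of genes, lay below 1, a 2-fold rise, the exceptions being Ccn2 and Tgfbi. For 27 it lay above -1, the exceptions being Tgfb2, Mmp2, Ccn1 and Dcn. Over all genes 29492 of 31087 intervals lay below 1 and 29607 above -1. Because the tissue was measured in bulk, fewer cells of a type and less RNA per cell cannot be told apart.

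**Figure D1:**
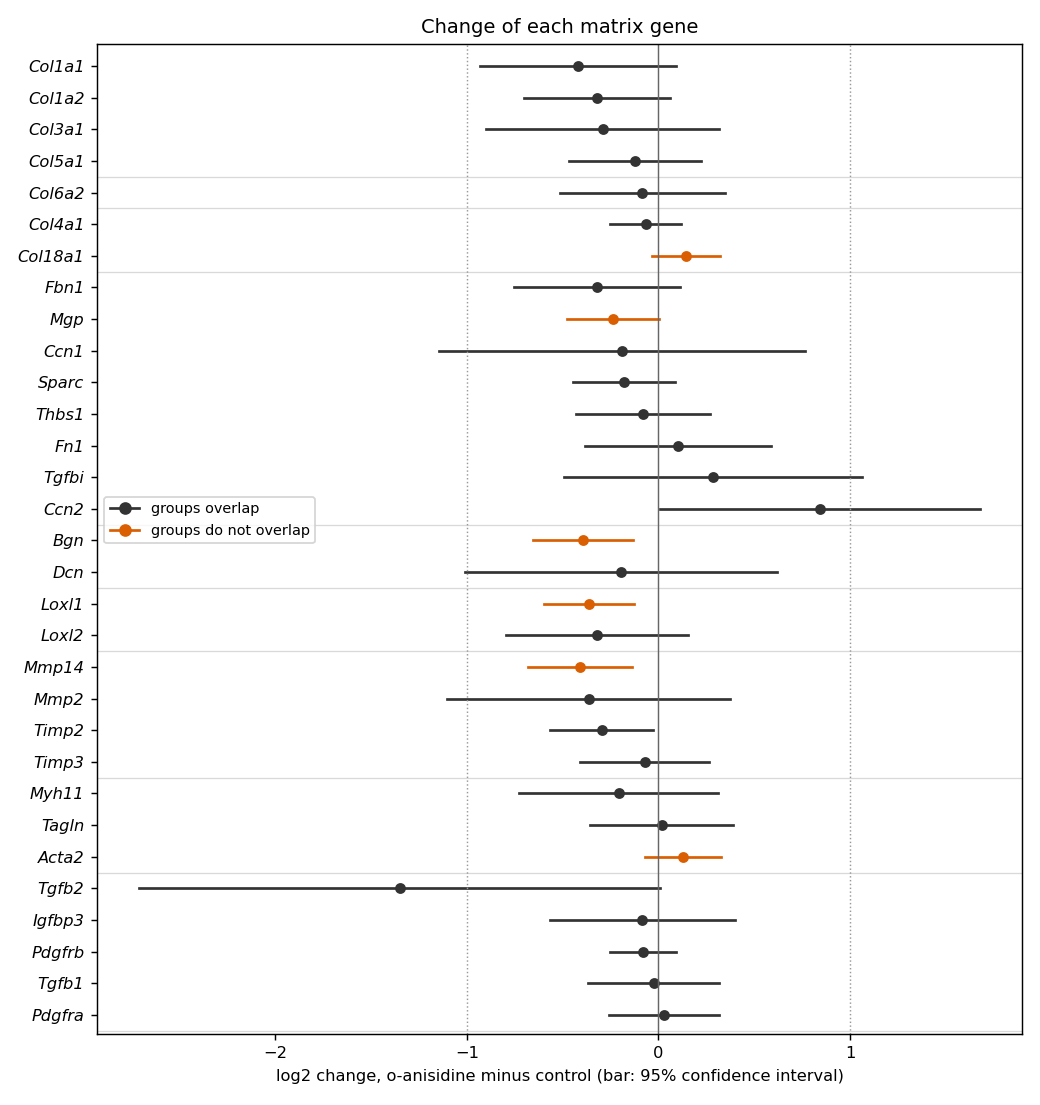
Log2 change (o-anisidine minus control) of the 31 tested matrix genes on the x axis, grouped by role along the y axis, with 95% confidence intervals as bars and the 2-fold limits as dotted lines. Of the 31 points only Tgfb2 (-1.35) and Ccn2 (0.85) lie outside the range from -0.42 to 0.28.

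The arrays differed among controls as well as between groups. Control 3 had the highest control signal for 25 of the 31 genes (80.6%, against 34.1% of all genes), and control 1 the lowest for 18 (58.1% against 36.7%). The median shift of the 31 genes from the control mean was -0.11, -0.06 and 0.24 on controls 1, 2 and 3 and -0.20, -0.13 and -0.19 on o-anisidine 1, 2 and 3. Thus the treated arrays lay close together and below control 1 and 2, and control 3 stood 0.24 above the mean. On o-anisidine 1, 2 and 3, 15, 19 and 12 of the 31 genes lay inside the range of the controls, 12, 9 and 13 below it and 4, 3 and 6 above it. Without control 3 the median log2 change was -0.04, with 20 genes below 0 and 11 above. The median SD was 0.26 among controls and 0.16 among treated arrays for these genes, against 0.12 and 0.14 for all genes, and the control SD was the larger for 19 of 31 (61.3%, against 44.6% of all genes).

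**Figure D2:**
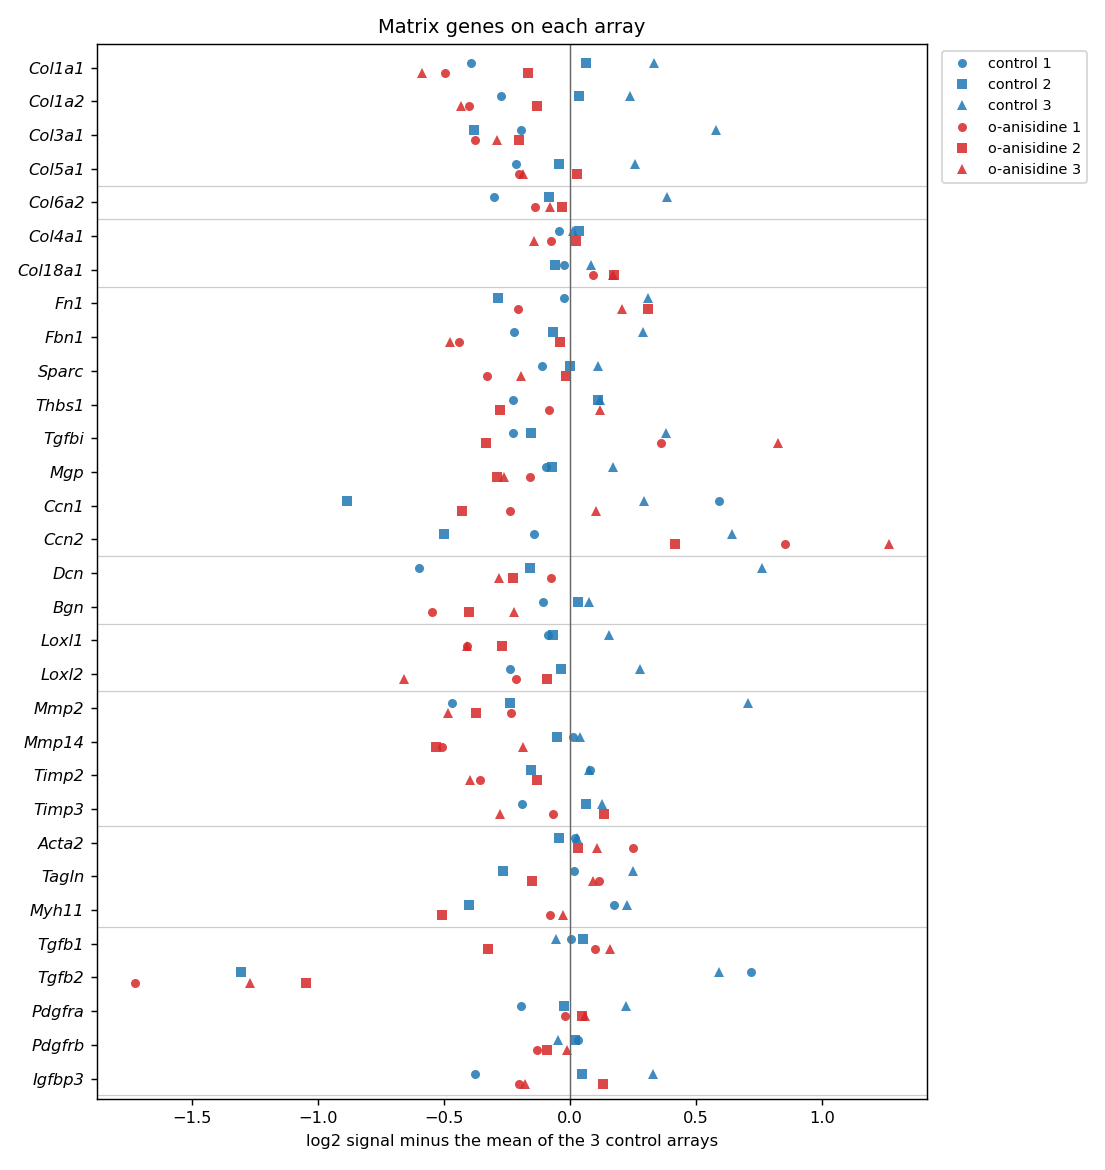
Log2 signal of each matrix gene on each array minus the mean of the 3 control arrays (x axis), 1 row per gene, with controls in blue and o-anisidine arrays in red. Control 3 (blue triangles) is the highest control in 25 of the 31 rows.

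Slide and group were not balanced. All controls and o-anisidine 3 were hybridised on 1 slide, and o-anisidine 1 and 2 on the other. With slide as a block, or on the shared slide alone, which rests on o-anisidine 3 as the only treated array, the median log2 change was -0.19 and 21 of 31 genes lay below 0. No matrix gene passed the threshold in either fit, the smallest adjusted p being 0.414 for Loxl2 with the block and 0.469 for Tgfbi on the shared slide. The log2 change on the shared slide is called the within-slide change below.

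Fibrillar collagens, which give the interstitium its tensile strength, all had log2 changes below 0, with a median of -0.31 over 4 genes and none called. Without control 3 that median was -0.10, and Col5a1 turned to 0.0065. Col1a1, the alpha 1 chain of collagen I, had log2 signals of 0.99, 1.45 and 1.71 on controls 1, 2 and 3 and 0.88, 1.22 and 0.79 on o-anisidine 1, 2 and 3. The treated values lay low, with o-anisidine 2 inside the control range, and the log2 change was -0.42 (SE 0.21, adjusted p = 0.505, within-slide -0.59). Col1a2, the alpha 2 chain of the same collagen, followed the same order of arrays, at 3.53, 3.84 and 4.04 in controls and 3.40, 3.67 and 3.37 after treatment (log2 change -0.32, SE 0.16, adjusted p = 0.491).

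Col3a1, the collagen of reticular fibres, was at 1.84, 1.65 and 2.61 in controls and 1.65, 1.83 and 1.74 after treatment. All 3 treated arrays lay within the control range, and the control SD of 0.51 was set by control 3. Without control 3 the log2 change of -0.29 (SE 0.25, adjusted p = 0.690) became -0.00. Col5a1, which nucleates collagen I fibrils, had -0.12 (SE 0.14, adjusted p = 0.773). Col6a2, a chain of the beaded filaments around cells, had -0.08 (SE 0.18, adjusted p = 0.885), at 1.94, 2.16 and 2.63 in controls and 2.10, 2.21 and 2.16 after treatment, with every treated array inside the control range. Other probes of Col1a1 gave log2 changes of -0.33 and -0.07, and another of Col1a2 gave -0.51.

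Of the basement membrane collagens, 1 lay on each side of 0. Col4a1 was at 4.39, 4.47 and 4.45 in controls and 4.36, 4.46 and 4.29 after treatment, a log2 change of -0.07 (95% confidence interval -0.25 to 0.12, adjusted p = 0.774). Col18a1, whose C-terminal fragment is endostatin, was at 2.47, 2.43 and 2.57 in controls and 2.58, 2.66 and 2.66 after treatment. The groups did not overlap, although control 3 and o-anisidine 1 lay close together, and the log2 change of 0.14 (SE 0.07, adjusted p = 0.507) did not pass the threshold. Its other probe also gave 0.14.

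Among cross-linking enzymes, Loxl1, a lysyl oxidase of elastic fibres, had log2 signals of 2.31, 2.34 and 2.56 in controls and 1.99, 2.13 and 1.99 after o-anisidine. Every treated array lay below every control, a log2 change of -0.36 or a ratio of 0.778 (SE 0.10, adjusted p = 0.272), and the within-slide change was -0.41. A second Loxl1 probe gave a log2 change of -0.46 (SE 0.11). Loxl2, which cross-links collagen IV, was at -0.74, -0.54 and -0.22 in controls and -0.72, -0.59 and -1.16 after treatment, so that only o-anisidine 3 left the control range (log2 change -0.32, SE 0.20, adjusted p = 0.575).

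Matrix proteases and inhibitors had a median log2 change of -0.33 over 4 genes, none called. Mmp14, the membrane-bound metalloproteinase that activates Mmp2, was at 2.39, 2.33 and 2.42 in controls and 1.87, 1.85 and 2.19 after treatment. All treated values were lower, with o-anisidine 3 nearest the controls (log2 change -0.41, SE 0.11, adjusted p = 0.280, within-slide -0.19), and the other probe also gave -0.41. Timp2, an inhibitor that also takes part in Mmp2 activation, was at 4.06, 3.83 and 4.06 in controls and 3.62, 3.85 and 3.59 after treatment, with o-anisidine 2 just inside the control range (log2 change -0.30, SE 0.11, adjusted p = 0.404).

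Mmp2, gelatinase A, was at 0.39, 0.62 and 1.56 in controls and 0.62, 0.48 and 0.37 after treatment. Control 3 alone stood high, and the log2 change of -0.36 (SE 0.30, adjusted p = 0.679) was -0.01 without it. The other Mmp2 probe gave a log2 change of -0.60 with all arrays. Timp3, the inhibitor bound to the matrix, had -0.07 (SE 0.14, adjusted p = 0.872).

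**Figure D3:**
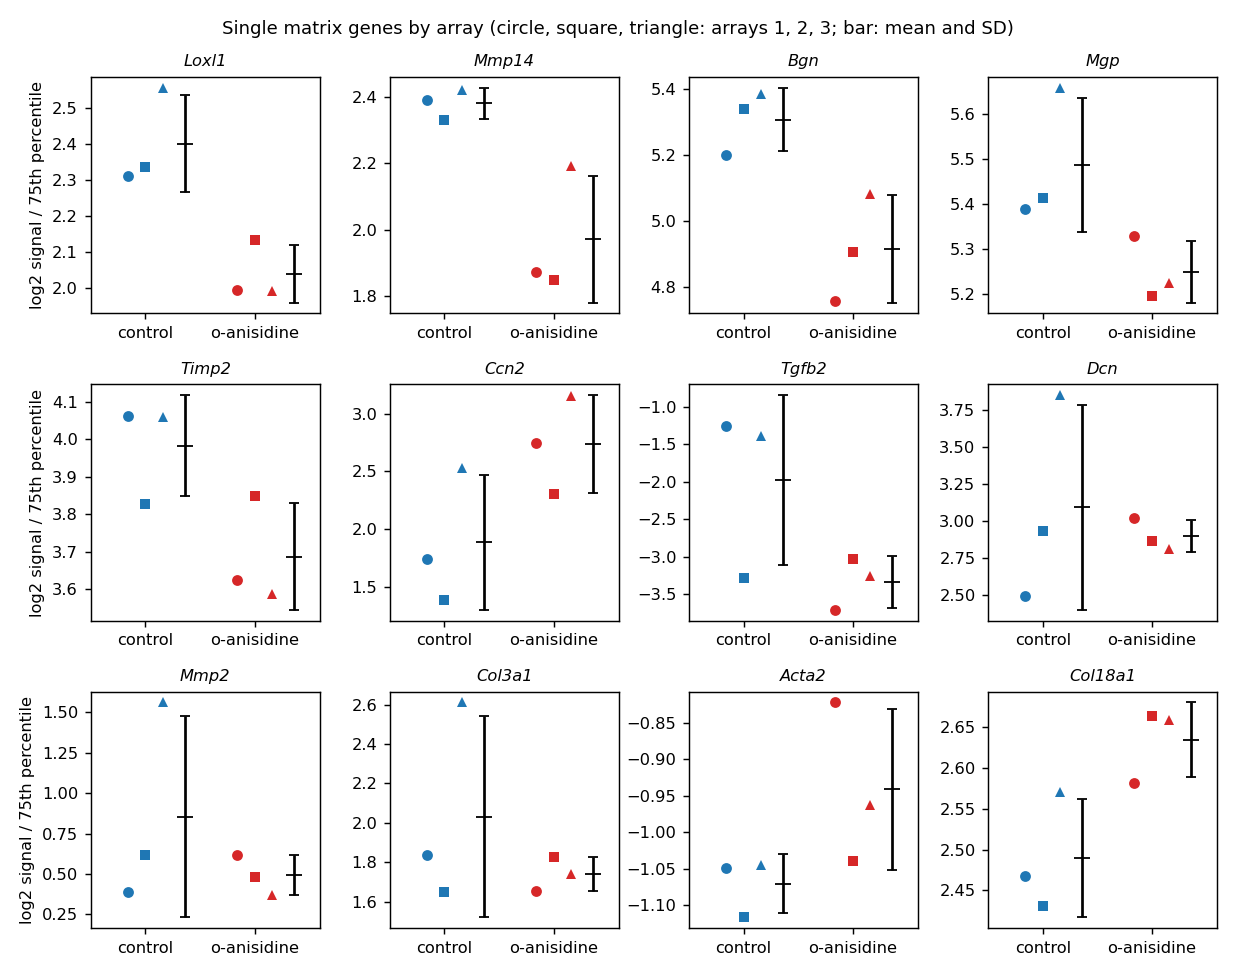
Log2 signal relative to the array's 75th percentile (y axis) of 12 matrix genes in each group (x axis), with 1 point per array and the mean and SD of 3 arrays as a bar. Loxl1, Mmp14, Bgn and Mgp have every treated point below every control point, whereas in Dcn, Mmp2 and Col3a1 control 3 alone stands above all other arrays.

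Of the small proteoglycans, biglycan (Bgn), which binds collagen and TGF-beta, was at 5.20, 5.34 and 5.38 in controls and 4.76, 4.91 and 5.08 after o-anisidine. The groups did not overlap. The log2 change was -0.39, a ratio of 0.762 (SE 0.11, adjusted p = 0.285), with a within-slide change of -0.22. A second Bgn probe had a log2 change of -0.14 (SE 0.40) and did not separate the groups, since control 1 stood high on it at 1.71 while the other arrays ran from 0.26 to 0.82. Decorin (Dcn), which wraps collagen fibrils, was at 2.49, 2.93 and 3.85 in controls and 3.02, 2.87 and 2.81 after treatment. Its treated values lay inside the control range, and the log2 change of -0.19 (SE 0.33, adjusted p = 0.854) was 0.19 without control 3.

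Matricellular and glycoprotein genes went both ways. Ccn2, or connective tissue growth factor, was at 1.75, 1.39 and 2.53 in controls and 2.74, 2.31 and 3.15 after o-anisidine. Treated values were high apart from o-anisidine 2, which lay below control 3, and the log2 change was 0.85, or 1.80-fold (SE 0.34, adjusted p = 0.432, within-slide 1.27). Ccn1, a close relative also induced by serum and stretch, ran from 0.42 to 1.90 in controls and from 0.88 to 1.42 after treatment (log2 change -0.19, SE 0.39, adjusted p = 0.883). Its control spread came from control 2, which was low on all 3 Ccn1 probes.

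Matrix Gla protein (Mgp), an inhibitor of vascular calcification, was at 5.39, 5.41 and 5.66 in controls and 5.33, 5.20 and 5.23 after treatment. The groups did not overlap, and the log2 change was -0.24 (SE 0.10, adjusted p = 0.437). Fibrillin-1 (Fbn1), the core of microfibrils that store latent TGF-beta, was at 1.19, 1.34 and 1.70 in controls and 0.97, 1.37 and 0.93 after treatment (log2 change -0.32, SE 0.18, adjusted p = 0.544). Sparc, a collagen-binding glycoprotein, had -0.18 (SE 0.11, adjusted p = 0.573). Fibronectin (Fn1), an early matrix scaffold, had 0.10 (SE 0.20, adjusted p = 0.873), at 1.47, 1.21 and 1.81 in controls and 1.29, 1.80 and 1.70 after treatment, so that all treated arrays lay among the controls.

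Tgfbi, named for its induction by TGF-beta, was at 0.26, 0.34 and 0.87 in controls and 0.85, 0.15 and 1.31 after treatment. It was high on o-anisidine 3 and lowest of all on o-anisidine 2, so the log2 change of 0.28 (SE 0.32, adjusted p = 0.770) was 0.82 within the shared slide. Thrombospondin-1 (Thbs1), an activator of latent TGF-beta, was at -5.07 to -4.73 in controls and -5.12 to -4.73 after treatment (log2 change -0.08, SE 0.14, adjusted p = 0.860).

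Among growth factors, Tgfb1, the main profibrotic isoform, had log2 signals of -2.49, -2.44 and -2.54 in controls and -2.39, -2.82 and -2.33 after treatment. Its log2 change was -0.02 (95% confidence interval -0.37 to 0.32, adjusted p = 0.963). Tgfb2, a second isoform, was at -1.26, -3.29 and -1.39 in controls and -3.71, -3.03 and -3.25 after o-anisidine. Controls 1 and 3 stood apart from the other 4 arrays, with control 2 among the treated values. The log2 change was -1.35 (SE 0.56, adjusted p = 0.436, within-slide -1.27). Leaving out 1 array at a time gave -2.01 to -0.99, the larger fall being without control 2 (adjusted p = 0.174). A second probe repeated this order of arrays with a log2 change of -1.34, and the third gave -0.67.

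The receptors that mark fibroblasts and pericytes differed little. Pdgfra, the PDGF receptor of interstitial fibroblasts, was at 2.24, 2.41 and 2.65 in controls and 2.41, 2.48 and 2.49 after treatment, a log2 change of 0.03 (95% confidence interval -0.26 to 0.32, adjusted p = 0.943). Pdgfrb, the receptor of pericytes and mesangial cells, was at 0.43, 0.42 and 0.35 in controls and 0.26, 0.30 and 0.38 after treatment, a log2 change of -0.08 (95% confidence interval -0.25 to 0.09, adjusted p = 0.698). Igfbp3, a secreted binding protein of insulin-like growth factors, had a log2 change of -0.08 (adjusted p = 0.899, SE 0.20).

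Smooth muscle genes, which myofibroblasts also express, showed no common direction. Acta2, smooth muscle alpha actin, was at -1.05, -1.12 and -1.04 in controls and -0.82, -1.04 and -0.96 after o-anisidine. The groups did not overlap, although o-anisidine 2 lay barely above control 3, and the log2 change was 0.13, or 1.09-fold (SE 0.08, 95% confidence interval -0.07 to 0.33, adjusted p = 0.594). The separation of Acta2 was lost with quantile normalization and with normexp background correction, and that of Col18a1 with arrays scaled to their median. Tagln, the actin-binding protein SM22, had 0.02 (SE 0.15, adjusted p = 0.976), with every treated array inside the control range. Myh11, the smooth muscle myosin heavy chain, was at -0.22, -0.80 and -0.17 in controls and -0.48, -0.91 and -0.43 after treatment, with array 2 the lowest of each group (log2 change -0.21, SE 0.21, adjusted p = 0.745).

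**Figure D4:**
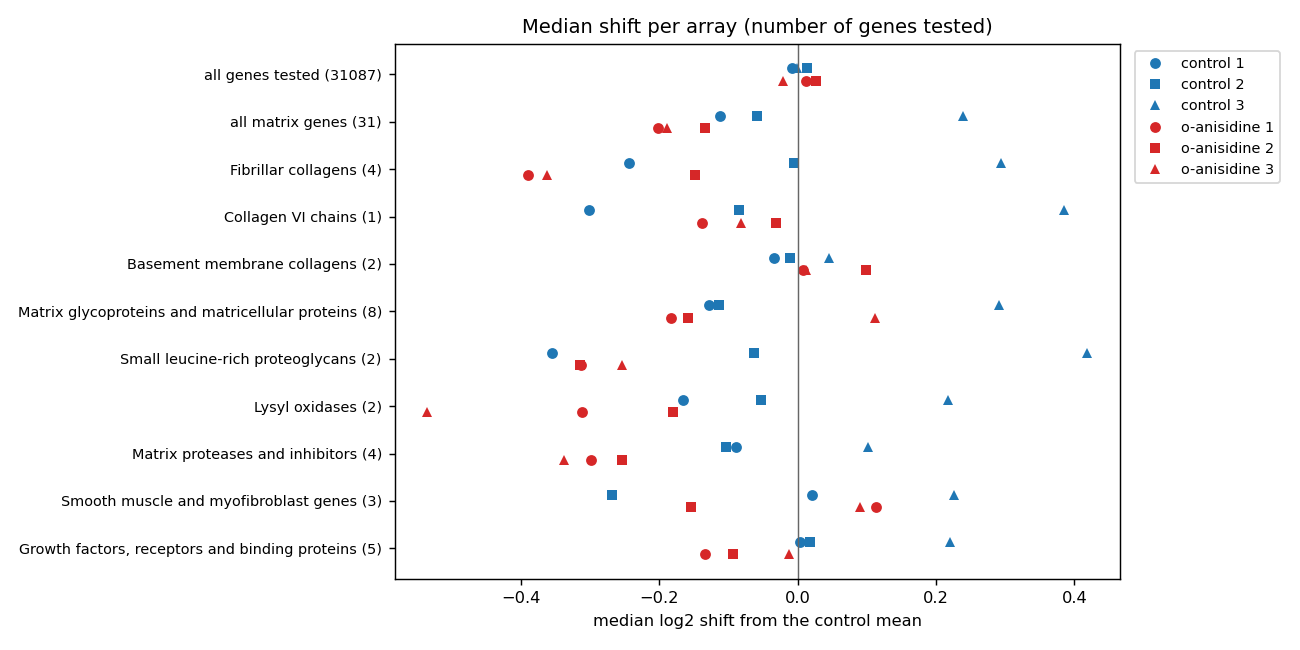
Median log2 shift from the control mean (x axis) on each array for all genes, all 31 tested matrix genes and each role group (y axis), with controls in blue and o-anisidine arrays in red. All 3 treated arrays lie below all 3 controls for the set as a whole, the lysyl oxidases, the matrix proteases and inhibitors and the growth factors, receptors and binding proteins, and control 3 is the highest control in every role group.

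In all, 18 of the genes had more than 1 kept probe, and for 14 of them every probe had a log2 change of the same sign. The 4 with probes of both signs were Col4a1, Col5a1, Fn1 and Tgfbi, whose changes were small or varied between treated arrays.

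A further 10 lists of other matrix and TGF-beta genes were examined beside the 39 genes. They held 203 genes outside the set, of which 159 had a matched probe and 140 were tested. None passed the threshold in either direction (limma), with 6 higher (4.29%, against 6.36% of all genes) and 18 lower (12.9% against 5.14%) at an unadjusted p under 0.05. Of the 140, 59 lay above and 81 below 0 (57.9% below, against 49.1% of all genes), with a median log2 change of -0.05. Their smallest adjusted p was 0.124, for Adam19, a membrane metalloproteinase, at -1.12, -0.83 and -1.15 in controls and -1.82, -1.69 and -1.65 after o-anisidine (log2 change -0.69, SE 0.11). The 22 genes whose groups did not overlap with lower treated values were 15.7% of the 140, against the background of 8.88%, and the 10 with higher treated values were 7.14%, against 9.55%.

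TGF-beta receptors, SMADs and latency proteins had a median log2 change of -0.01 over 21 tested of 26, with 10 above and 11 below 0. Endoglin (Eng), a co-receptor of endothelial cells, was at 0.64, 0.74 and 0.79 in controls and 0.41, 0.25 and 0.26 after treatment (log2 change -0.42, SE 0.08, adjusted p = 0.159), and these groups did not overlap. The list of TGF-beta target genes, which shares Ccn2, Tgfbi, Postn, Col1a1, Col3a1 and Fn1 with the 39, had a median of 0.10 over 14 genes, with 8 above and 6 below 0. Its smallest p belonged to Bhlhe40, a transcription factor, at 0.41 (SE 0.13, adjusted p = 0.357). Smad7, the inhibitory SMAD, had -0.08 (SE 0.12, adjusted p = 0.836).

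Collagen processing enzymes and chaperones had a median log2 change of -0.04 over 19 of 26 genes, 13 of them below 0. Tgm2, a transglutaminase that cross-links fibronectin, had the smallest p, at 5.37, 5.23 and 5.14 in controls and 4.89, 4.84 and 4.67 after treatment (log2 change -0.44, SE 0.10, adjusted p = 0.192). Serpinh1, the collagen chaperone HSP47, had 0.05 (SE 0.18, adjusted p = 0.934). The other collagen chains had a median of 0.01 over 9 of 21 genes, and Col4a4, a chain of the glomerular basement membrane, had -0.22 (SE 0.14, adjusted p = 0.582). Elastic fibre and other matrix glycoproteins had a median of -0.18 over 24 of 30, 17 of them below 0, and Ogn, a small proteoglycan, had -0.68 (SE 0.21, adjusted p = 0.336).

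Laminins, nidogens and perlecan had a median of 0.05 over 8 of 17. Other matrix proteases and inhibitors had a median of -0.11 over 21 of 31, of which 15 were below 0. Timp1, an inhibitor of most metalloproteinases, was at 1.02, 1.04 and 1.21 in controls and 2.09, 1.21 and 1.32 after treatment, high on o-anisidine 1 alone (log2 change 0.45, SE 0.24, adjusted p = 0.526).

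Smooth muscle contractile genes had a median of -0.03 over 13 of 16, and Mylk, the myosin light chain kinase, had -0.28 (SE 0.07, adjusted p = 0.268). Integrins and matrix receptors had a median of 0.01 over 12 of 20, and Ddr1, a collagen receptor, had 0.25 (SE 0.13, adjusted p = 0.518). PDGF ligands and other fibroblast growth factors had a median of -0.12 over 11 of 14, 8 of them below 0. The chemokine gene Ccl2 had the smallest p of that list, at -0.80 (SE 0.14, adjusted p = 0.137). Igf1, a growth factor, was at 2.86, 3.81 and 3.53 in controls and 1.30, 2.31 and 1.78 after treatment, with every treated array lower (log2 change -1.60, SE 0.33, adjusted p = 0.173). Igf1, Timp1, Serpinh1 and Smad7 were named after their values were seen.

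Marker lists of cell types were measured on the same arrays. Of 18 fibroblast and pericyte markers 15 were tested, with 4 above and 11 below 0 and a median log2 change of -0.08, and Lum and Fap did not reach the detection filter in either group. The summed signal of this list, relative to the 75th percentile, was 27.2 to 41.2 in controls, highest on control 3, and 29.3 to 30.1 after treatment. The list shares Pdgfra, Pdgfrb, Dcn, Lum, Col1a1 and Col3a1 with the matrix genes, so its sum is not a separate measure of fibroblasts. Among controls, Pdgfra, Dcn, Col1a1 and Col3a1 were highest on control 3, and Pdgfrb was lowest there. The 12 endothelial markers had a median of 0.04 (summed signal 75.5 to 95.8 in controls and 79.3 to 89.0 after treatment), and the 13 proximal tubule markers, all tested, had 0.04 (2809 to 3053 and 2767 to 3286). The 13 tested macrophage and dendritic markers had a median of -0.10 (118 to 131 and 96.2 to 134), and Cd163 and Itgam were not tested.

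All 9 tested red blood cell markers had a log2 change above 0, and 4 passed the threshold as higher in limma (44.4%, against 0.0354% of all genes). The largest changes were in Rhd (2.61, SE 0.12, adjusted p = 0.00477) and Ahsp (2.34, SE 0.21, adjusted p = 0.0419). The median of the 9 was 1.97 (553 to 750.4 in controls and 1088 to 1311 after treatment). Tubule injury markers had a median of 0.75 over 12 genes, with none called and 3 higher and 1 lower at an unadjusted p under 0.05 in limma (39.5 to 44.6 in controls and 51.8 to 145.8 after treatment). The injury list shifted by a median of 1.23, 0.17 and 0.70 on the treated arrays 1, 2 and 3 and of 0.02, 0.01 and -0.08 on the controls. The fibrillar collagens shifted by -0.39, -0.15 and -0.36 on the treated arrays and by -0.24, -0.00 and 0.29 on the controls, so control 1 lay below o-anisidine 2. The 4 tested neutrophil markers had a median of 0.88 (0.505 to 0.762 and 1.24 to 1.57), with Elane, Ngp and Cxcr2 not tested, and the 10 lymphocyte markers had -0.31 (3.83 to 4.09 and 3.02 to 3.85). The 11 podocyte and mesangial markers, which include Pdgfrb of the 39 genes, had -0.08 (42.4 to 46.6 and 34.1 to 43.8). All 11 of these and all 10 lymphocyte markers lay below 0, against 49.1% of all genes. All 4 neutrophil markers lay above 0, against 50.9% of all genes. At an unadjusted p under 0.05 in limma, 3 of the 4 were higher (75%, against 6.36% of all genes) and 0 lower, and 0 were called. The part of these lists in the values of the matrix genes was not tested.

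Marker lists named for the medulla and for other tissue near the cortex were compared too. The medulla list also held Slc12a3 and Calb1 of the cortical distal tubule, and Umod, Aqp2 and Aqp3, which cortical tubules express too. It therefore does not separate medulla from cortex. The medulla list had a median of 0.06 over 10 genes (535 to 622 in controls and 538 to 629 after treatment), the urothelium list 0.08 over 7 (22.5 to 26.5 and 21.4 to 26.1), the adipocyte list 0.03 over 5 (1.92 to 2.28 and 1.94 to 2.61), the adrenal list 0.22 over 5 (2.93 to 3.06 and 3.12 to 3.94) and the skeletal muscle list 0.45 over 4 (0.214 to 0.284 and 0.253 to 0.471). Upk2, Krt13 and Krt20 of the urothelium, Lep of fat, Star, Cyp11b1 and Dbh of the adrenal gland and Myh4 and Myl1 of muscle did not reach the detection filter in either group. No gene of these lists was called, and Cyp11b2 (higher) and Aqp2 (lower) were those at an unadjusted p under 0.05 in limma. The members with the smallest p were Thy1 of the fibroblast list (log2 change -0.56, adjusted p = 0.282), Sox17 of the endothelial list (0.29, 0.422), Aif1 of the macrophage list (-0.24, 0.395), Podxl of the podocyte list (-0.31, 0.440) and Lrp2 of the proximal tubule (-0.20, 0.513). For injury and blood cells they were Krt19 (log2 change 2.88, adjusted p = 0.0894), S100a9 of neutrophils (1.37, 0.115) and Nkg7 of lymphocytes (-0.53, 0.162). For the medulla list it was Aqp2 (log2 change -0.58, adjusted p = 0.412 in limma). For the urothelium, adipocyte, adrenal and skeletal muscle lists they were Upk1a (0.45, 0.459), Cidec (0.41, 0.626), Cyp11b2 (0.35, 0.405) and Acta1 (1.03, 0.552).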

How the data were processed

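The authors deposited 1 scanner file per array. Its processed signal is, per the file headers, an intensity from Agilent Feature Extraction (10.7.1.1 in the headers, 10.7 in the submitters' processing notes), corrected for background by that software and not scaled between arrays. Flags of 0 or 1, also per the file headers, mark outlier spots and spots above background. The array design was annotated on rn4. Of 61657 probes, after 1319 control spots, 27460 matched 15284 symbols of the GRCr8 RefSeq table by accession, and 34197 kept the array's identifier. Between 41670 and 43630 probes were well above background per array, and none was saturated. Probes with an outlier flag (16) were left out, as were those that no group had above background on each of its 3 arrays, which left 42036. The brightest probe stood for each of 31087 genes.

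Groups were compared with limma 3.58.1 in R 4.3.3 (lmFit and eBayes, two-sided, no covariates, 4 residual and 2.11 prior degrees of freedom), adjusted by Benjamini-Hochberg over all genes. The fit was tested on simulated data. The number of arrays limits the precision. By rule, values on each array are given, in each role group where none passed, for the gene with the smallest p, the gene with the largest change and those whose groups did not overlap, and every other member is accounted for. Each pathway or cell type list is represented by its 2 largest changes in each direction past the threshold or else by the gene with the smallest p. A pathway gene that this rule would name is not reported here. Some further members have values on each array, chosen after they were seen. The members and lists were chosen with earlier results of these data known.

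The authors' table holds intensity values scaled to the 75th percentile, found by comparison with the scanner files. Every column matched an array of its own group under a different replicate number (r = 1.00), in the same rotation in both groups, and which numbering is right is unknown. Replicate numbers follow the scanner files. Column medians were 0.104 to 0.108.
The planned comparison of collagen repeats in proteins was not made, because no protein sequences were used here. The files hold median and no mean spot signals, so the planned normexp alternative used the median.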

Additional observations from a re-analysis of the deposited data

How the results depend on the processing

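No matrix gene and no gene of the 10 pathway lists passed the threshold under any of the 18 alternatives (limma), where the lowest adjusted p was 0.120 for Loxl1 and 0.0519 for Tgm2, both with normexp. Over all genes, the 11 higher and 8 lower calls became 68 and 18 with normexp and 91 and 29 with a trended, robust variance model. The higher calls became 5 with no filter on dim probes, and the lower calls 5 with a filter on all arrays. With slide as a block there were 2 higher and 1 lower, and on the shared slide 1 and 1. Leaving out 1 array at a time gave 2 to 16 higher and 1 to 5 lower calls.

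The count of matrix genes whose groups did not overlap with higher treated values became 1 with normexp, 1 with quantile normalization, 1 with scaling to the median and 6 on the shared slide, and 13 were lower there, where 1 treated array makes separation easier (7823 higher and 9842 lower of all 31087 genes). Leaving out 1 array gave 2 to 4 higher and 4 to 10 lower, while over all genes it gave 4104 to 6286 higher and 3959 to 4631 lower, against 2970 and 2760 with all arrays. The median of the glycoproteins was 0.11, and that of the lysyl oxidases -0.53, with slide as a block or alone. Leaving out 1 array moved the median of all 31 genes between -0.23 and -0.042 and that of the proteases and inhibitors between -0.40 and -0.13, the value nearest 0 being without control 3 in both.

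Signs turned for some genes with log2 changes from -0.19 (Dcn) to 0.10 (Fn1), though not for all genes in that range. Sparc, at -0.18, kept its sign. Thbs1 was 0.011 with normexp and 0.12 with slide as a block or alone, Tgfb1 0.029 and 0.16, Ccn1 0.10 with slide, and Pdgfra -0.00553 with normexp. Leaving out 1 array gave -0.23 to 0.0065 for Col5a1, -0.23 to 0.11 for Col6a2, -0.041 to 0.26 for Fn1, -0.19 to 0.018 for Thbs1, -0.63 to 0.11 for Ccn1, -0.49 to 0.19 for Dcn, -0.17 to 0.032 for Timp3, -0.12 to 0.14 for Tagln, -0.12 to 0.13 for Tgfb1, -0.069 to 0.14 for Pdgfra and -0.27 to 0.082 for Igfbp3. The cause was not tested for any of these.

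The replicate numbers did not pair the arrays (correlations of 0.020, 0.077 and 0.012 between arrays of the same number). With the replicate block there were 1 higher and 0 lower calls over all genes (1445 lower at an unadjusted p under 0.05) and 0 among the matrix genes, whose smallest adjusted p was 0.222 for Ccn2. The normexp plan named a mean spot signal, and the median was used.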
